A study of Mus musculus with 40 samples.

Results

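Follicular B cells that lack both Tet2 and Tet3 (double knockout, DKO) were compared with follicular B cells that lack Tet2 alone (Tet2KO), so the groups differ by the loss of Tet3 in cells that have no Tet2. The members are the autosomal 100 bp tiles with a methylation level in all 6 libraries of the comparison, which were 376038 of the 971845 tiles of the table. Methylation had been read by reduced representation bisulfite sequencing (RRBS), in which restriction fragments rich in CpG are sequenced after conversion of unmethylated cytosine. The table holds 24 libraries, 3 for each of 4 genotypes at the pro-B and follicular stages. Levels are given as the percentage of methylated cytosines in a tile, and tiles are named by mm9 coordinates without gene names, because no annotation of that build was used here.

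All cells came from C57/bl mice. Per the labels, Tet2 and Tet3 were deleted by an inducible knockout under the Mb1 promoter, a promoter active in the B lineage from its early stages, so both compared groups carry the Tet2 deletion and DKO carries the Tet3 deletion as well. The Tet2KO libraries 16, 17 and 18 came from female mice of 8, 6 and 6 weeks. The DKO libraries 22 and 23 came from male mice of 7 weeks, and library 24 came from a female mouse of 6 weeks. Wild-type (WT) and Tet3KO follicular libraries serve below as the same Tet3 loss with Tet2 present. WT libraries 13 and 14 came from male mice of 8 and 6 weeks and library 15 from a female mouse of 6 weeks. Tet3KO libraries 19 and 21 came from male mice and library 20 from a female mouse, all of 7 weeks. The pro-B libraries are numbered 1 to 3 (WT), 4 to 6 (Tet2KO), 7 to 9 (Tet3KO) and 10 to 12 (DKO), and each of the 12 follicular libraries has a pro-B library of the same genotype, sex and age. The labels do not say whether these came from the same mice. Whether each library stands for its own mouse is not stated in the labels, so p-values measure the spread between these libraries. Neither the deletions nor the identity of the sorted cells could be checked from methylation tiles, since no expression values were analysed here.

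The enzymes encoded by Tet2 and Tet3 are dioxygenases. They oxidise 5-methylcytosine to 5-hydroxymethylcytosine and further products, which leads to replacement by unmodified cytosine through repair or through dilution at cell division. Most CpGs of the mouse genome are methylated, while CpG-dense promoters stay unmethylated and enhancers lose methylation when they become active. Tet2 and Tet3 are the family members mainly expressed in B cells, where their combined loss is known to leave enhancers of the lineage methylated. Follicular B cells are the mature, resting, recirculating B cells of spleen and lymph nodes, and pro-B cells are their precursors in the bone marrow.

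Read depth per tile was not given, so the number of tiles with a value is the nearest measure of it. That number ran from 533586 to 580328 in the Tet2KO libraries and from 480090 to 527930 in the DKO libraries, without overlap. Among the member tiles, 14% to 17.6% stood at exactly 100% in the Tet2KO libraries and 18.3% to 21.9% in the DKO libraries. Sex and the number of tiles therefore moved with genotype, while ages overlapped between the groups, and their part in the results was not tested except where a value is given.

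The genome-wide level differed little between DKO and Tet2KO. Over all member tiles the mean level was 62.2%, 62.2% and 62.2% in Tet2KO libraries 16, 17 and 18, against 63.3%, 62.6% and 63.2% in DKO libraries 22, 23 and 24. The 3 DKO libraries lay above the 3 Tet2KO libraries, with a difference of 0.835 percentage points (SE 0.230). The two-sided exact permutation p was 0.1, the smallest that 3 against 3 libraries can give, and 0.133 after Benjamini-Hochberg adjustment over the 4 classes of tiles compared in this way.

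The difference sat mainly at tiles of intermediate methylation. Tiles were placed in classes by their mean level in the follicular WT and Tet3KO libraries, which take no part in the comparison. At the 41835 tiles of 20 to 80% the level was 57.2%, 57.4% and 57.4% in the Tet2KO libraries and 63.0%, 59.1% and 62.3% in the DKO libraries. No DKO library overlapped with Tet2KO, and library 23 was the lowest of the DKO libraries. The difference was 4.16 points (SE 1.20, exact permutation p = 0.1). At the 112145 tiles under 20% the level was 2.45% ± 0.0198 in Tet2KO and 3.25% ± 0.243 in DKO (SD, n = 3 each), again without overlap, a difference of 0.797 points (exact permutation p = 0.1). At the 217991 tiles over 80% the groups overlapped at 93.7% ± 0.0423 and 93.9% ± 0.166 (SD, n = 3 each; exact permutation p = 0.2). A further 4067 tiles had fewer than 2 values in WT or Tet3KO and received no class.

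The class means were also set beside the same Tet3 loss with Tet2 present. Tet3KO and WT defined the classes, so their own difference within a class is a description. Over the 35750 intermediate tiles with a value in all 12 follicular libraries, Tet3KO lay 4.43 points above WT (SE 1.05) and DKO lay 4.11 points above Tet2KO (SE 1.19). The difference between these values was -0.318 points (SE 1.58). The 2 contrasts share no library. At the 104423 tiles under 20% the same contrasts were 0.461 points (SE 0.0913) and 0.753 points (SE 0.132), and they differed by 0.292 points (SE 0.160). At the 183995 tiles over 80% they were 0.487 points (SE 0.143) and 0.203 points (SE 0.104), and they differed by -0.284 points (SE 0.177). The plot of class means by library shows all 12 libraries.

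**Figure D1:**
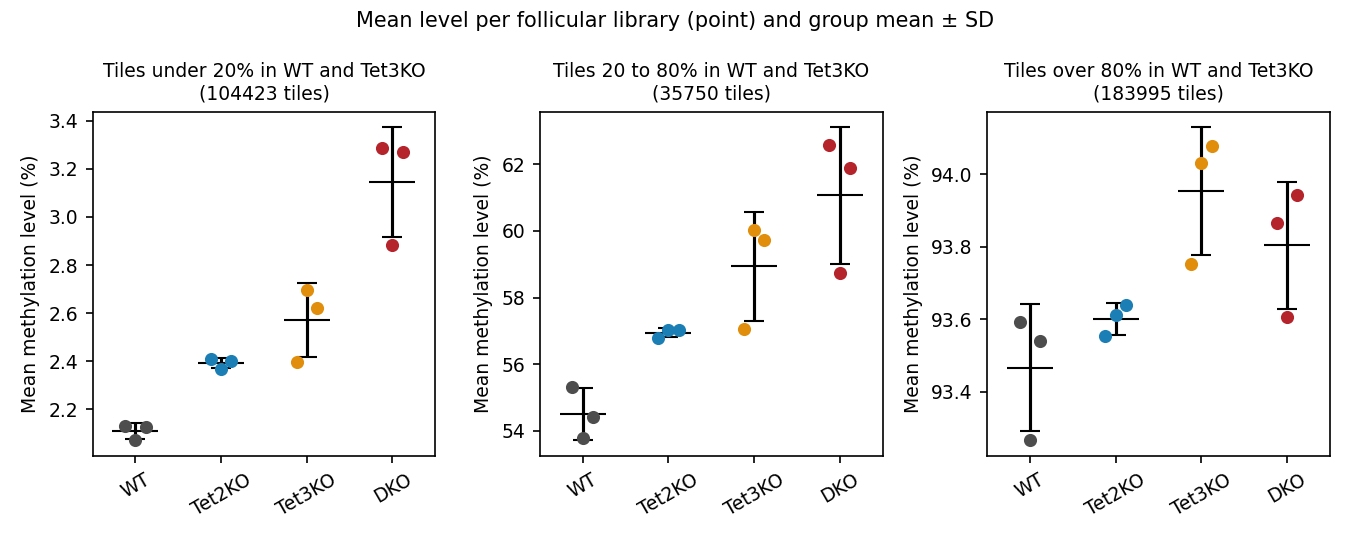
Mean methylation level (%) of each follicular library (points), with the group mean and SD (bars, n = 3), over tiles under 20%, of 20 to 80% and over 80% in WT and Tet3KO. The vertical axes do not start at 0 and differ between panels. DKO libraries lie above Tet2KO libraries in the first and second panel, with library 23 the lowest of the DKO libraries, and the groups overlap in the third.

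Single tiles were then tested with limma over the 12 follicular libraries, and a call needed an adjusted p under 0.05 together with group means at least 20 points apart. DKO was higher than Tet2KO at 320 tiles (0.0851% of those tested) and lower at 8 (0.00213%). Another 176 tiles had an adjusted p under 0.05 with a smaller difference, 124 of them higher in DKO. The largest difference among those was 19.9 points, against a smallest of 20.1 points among the called tiles. An unadjusted p under 0.05 was reached by 25184 tiles, 6.70% of those tested. The counts rest on a spread shared with WT and Tet3KO: with only the 6 compared libraries fitted, limma called 0 tiles in either direction, while 21683 tiles had an unadjusted p under 0.05. With sex as a covariate 156 tiles were higher and 10 lower, and the count of higher tiles was 211 without Tet2KO library 17 and 485 without DKO library 23.

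An imbalance in the same direction, though less marked, was seen without a model. The 3 DKO libraries lay above the 3 Tet2KO libraries at 21096 tiles (5.61% of those tested) and below them at 11157 (2.97%). With a difference of at least 20 points in addition, there were 3536 tiles above (0.940%) and 618 below (0.164%). The excess was largest at intermediate tiles, where 12.1% of tiles lay above and 3.39% below without overlap. Among tiles under 20% these shares were 4.58% and 1.79%, and among tiles over 80% they were 4.92% and 3.51%. Under random labels, full separation of 3 against 3 libraries in either direction has a probability of up to 0.1. The shares without the limit of 20 points are thus given for their imbalance only.

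Most of the 320 higher tiles stood under 20% in Tet2KO, and most stood over 50% in DKO. Across them the median level was 8.05% in Tet2KO and 71.3% in DKO, and the middle 50% of tiles ran from 2.66% to 20.04% in Tet2KO and from 47.6% to 86.4% in DKO. In Tet2KO 124 of the 320 stood under 5%, 116 between 5 and 20%, 65 between 20 and 50% and 15 between 50 and 80%. In DKO 116 stood over 80%, 112 between 50 and 80% and 92 between 20 and 50%. The differences had a median of 54.0 points and reached 92.6 points. By class 225 of the higher tiles came from tiles under 20% (0.201% of that class), 90 from intermediate tiles (0.215%) and 3 from tiles over 80% (0.00138%). These levels chose the tiles and are given as a description.

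Each library was also read at tiles that it had not helped to choose. At the 326 tiles called higher without DKO library 24, the only female DKO library, that library stood at 58.8%, while libraries 22 and 23 stood at 62.4% and the female Tet2KO libraries at 10.6%. It lay above all 3 Tet2KO libraries at 316 of these tiles (96.9%), against 23% of all tested tiles, though the Tet2KO libraries had helped to choose the tiles. DKO library 22 stood at 59.3% at the 327 tiles called without it. DKO library 23 stood at 46.8% at the 485 tiles called without it, where libraries 22 and 24 stood at 59.6%. Tet2KO libraries 16, 17 and 18 stood at 19.2%, 21.4% and 18.5% at the 217, 211 and 222 tiles called without each, where DKO stood at 70.0%, 70.7% and 69.6%. Every left-out library thus stood far nearer to its own group than to the other, with DKO library 23 the farthest from its group.

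Pro-B libraries, which were kept out of the fit, gave a difference of the same direction at these tiles. They carry the same imbalance of sex as the follicular libraries, with all pro-B Tet2KO mice female, and whether they come from other mice is not stated, so they cannot be taken as a second set of animals. Of the 320 tiles, 146 had a value in all 6 pro-B libraries of these genotypes. There pro-B Tet2KO libraries 4, 5 and 6 stood at 26.4%, 28.9% and 23.8%, and pro-B DKO libraries 10, 11 and 12 at 62.3%, 49.3% and 49.3%. The pro-B groups did not overlap, and library 10 was the highest. The difference was 27.3 points (SE 4.58, exact permutation p = 0.1, also 0.1 after Benjamini-Hochberg adjustment over 3 such tests), against 0.335 points (SE 0.692) over the 183848 member tiles with the same pro-B values. At the same 146 tiles follicular DKO lay 46.8 points above follicular Tet2KO. Pro-B DKO was at least 20 points above pro-B Tet2KO at 89 of the 146 tiles (61.0%), against 1.92% of all tested tiles, and the 3 pro-B DKO libraries lay above the 3 pro-B Tet2KO libraries at 65 (44.5%), against 3.37%. None of the 8 lower tiles had a value in all 6 pro-B libraries.

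Loss of Tet3 with Tet2 present went with a smaller difference at these tiles. Over the 294 higher tiles with a value in all follicular libraries, WT libraries 13, 14 and 15 stood at 9.53%, 8.85% and 9.53%, and Tet3KO libraries 19, 20 and 21 at 24.3%, 25.9% and 25.7%. Tet3KO thus lay 15.99 points above WT without overlap (SE 0.557, exact permutation p = 0.1), against 0.913 points over all 324168 tiles with 12 follicular values. The WT and Tet3KO libraries entered the spread of the fit, though not the difference it tested. The calls therefore favoured tiles with little spread within these groups, which bears on the SE and the lack of overlap. At the same 294 tiles Tet2KO libraries stood at 14.3%, 14.1% and 13.7% and DKO libraries at 67.4%, 65.0% and 66.7%. The difference of 52.3 points between these last groups chose the tiles, so its excess over the Tet3KO-to-WT difference is a description.

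The single knockouts were also set against WT at each higher tile. Among the 318 higher tiles with at least 2 values in WT and in Tet3KO, both Tet2KO and Tet3KO stood within 10 points of WT at 127 (39.9%), against 88.9% of all tested tiles. Tet3KO was at least 20 points above WT at 31.8% of them, against 1.15% of all tested tiles, and Tet2KO was so at 14 (4.40%), against 0.590%. Tet3KO stood at least 20 points above WT with Tet2KO within 10 points of it at 63 tiles (19.8%), against 0.447%. The median difference to WT was 2.94 points in Tet2KO and 12.5 points in Tet3KO. The call favours tiles with a low level in Tet2KO and does not use the mean of Tet3KO. The contrast between the single knockouts at these tiles is therefore a description.

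WT follicular cells stood lower than WT pro-B cells at the higher tiles. Over the 217 higher tiles with a value in all WT libraries, the pro-B libraries stood at 18%, 18.4% and 18.3% and the follicular libraries at 8.08%, 7.86% and 8.55%. The follicular level was 10.1 points lower (SE 0.241, exact permutation p = 0.1 with libraries taken as unpaired), whereas over all 192248 such tiles it was 1.38 points higher. A low follicular level in Tet2KO is part of what chose these tiles. Over the 96205 tested tiles under 20% in follicular Tet2KO, WT follicular cells lay 0.486 points above WT pro-B cells, while over the 166 higher tiles of that kind they lay 9.30 points below. Pro-B WT stood at only 1.72% over the 96205 tiles, against 13.6% over the 166. The larger set thus had little room for a fall and is not a matched control for the choice of tiles. The plot of tile levels by group sets all 8 groups side by side.

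**Figure D2:**
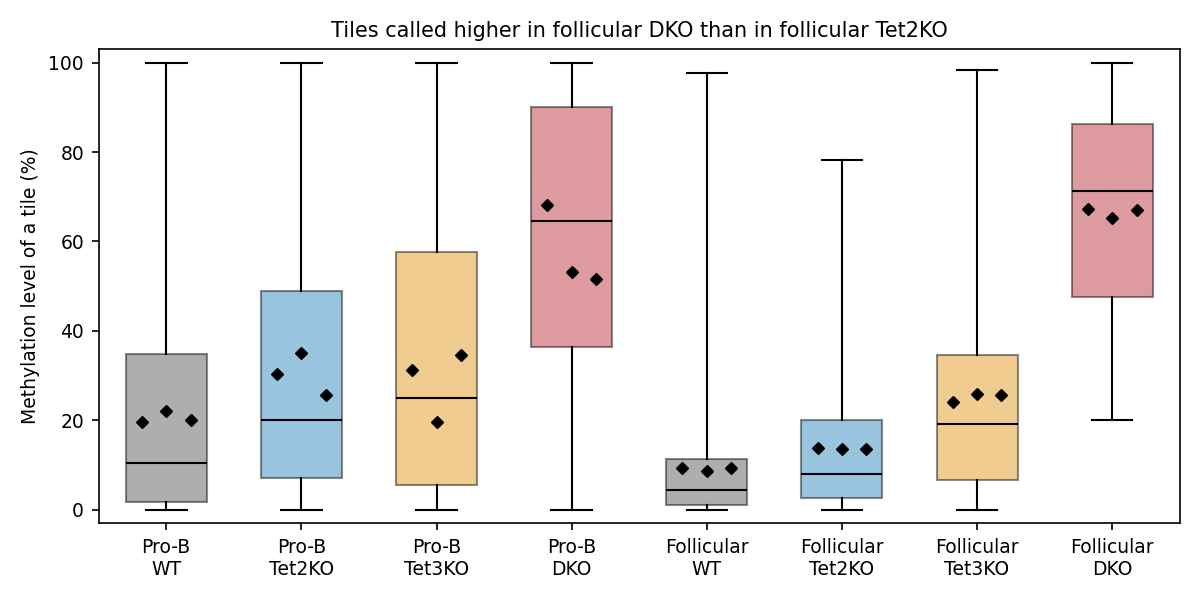
Methylation level (%) of the 320 tiles called higher in follicular DKO than in follicular Tet2KO, by stage and genotype. Boxes give the quartiles and median of the group means per tile, whiskers the lowest and highest tile, and diamonds the mean of each library. Diamonds rest on unlike sets of tiles, with values at only 9 of the 320 tiles in pro-B Tet3KO library 8 and 167 in pro-B DKO library 12. Follicular DKO has a median of 71.3% against 8.05% in follicular Tet2KO, and pro-B DKO one of 64.5% against 20.1% in pro-B Tet2KO, at the tiles with a value.

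Joining higher tiles that lay within 500 bp of each other gave 265 regions. Of these, 45 held at least 2 called tiles, with 100 tiles in all and at most 4 in a region, and in all 45 the DKO libraries lay above the Tet2KO libraries. The 15 of them with the largest difference are described here, in 2 groups formed after their values were seen. Their differences are overstated by the choice, and adjusted p-values are from limma.

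In a first group of 7 regions the Tet3KO mean lay between 1.90 and 11.7 points above the WT mean, and in 4 of them all Tet3KO libraries lay above all WT libraries. At chromosome 11, 5058301 to 5058500, Tet2KO libraries stood at 2.13%, 11.2% and 2.83% and DKO libraries at 86.8%, 80.1% and 83.5%, a difference of 78.1 points (adjusted p of its tiles up to 0.000164). Follicular Tet3KO stood there at 5.56% ± 3.33 and WT at 2.47% ± 2.20 (SD, n = 3 each), so that both single knockouts overlapped with WT and all DKO libraries stood apart. At chromosome 5, 123774301 to 123774600, Tet2KO libraries stood at 9.84%, 8.49% and 3.6% and DKO libraries at 82.1%, 90.4% and 82.8% (adjusted p up to 0.000531), with Tet3KO at 8.54% ± 0.564 and WT at 6.64% ± 1.81. The pro-B stage already held this difference, since pro-B Tet2KO stood at 27.0% ± 12.6 (n = 3) and pro-B DKO libraries 10 and 11 at 85.3% and 74.3%.

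Chromosome 10, 116996501 to 116996800, was listed at 0 in the 3 WT libraries. Tet2KO libraries stood there at 0, 2.54% and 1.14%, Tet3KO at 1.99% ± 0.768 and DKO libraries at 77.3%, 73.3% and 73.3% (adjusted p up to 0.000370). In pro-B WT libraries the same region ran from 0 to 100%. Pro-B Tet2KO libraries stood there at 14.1%, 0 and 0, Tet3KO libraries 7 and 9 at 100% and 97.8%, and DKO libraries 10 and 12 at 35% and 100%. Pro-B Tet3KO thus stood as high as the higher DKO library, and the depth behind these values is unknown. At chromosome 10, 79542701 to 79542900, Tet2KO stood at 10.6% ± 8.22, Tet3KO at 8.61% ± 2.59 and DKO at 83.1% ± 3.45 (SD, n = 3 each). At chromosome 19, 37546001 to 37546200, Tet2KO stood at 4.22% ± 4.27, Tet3KO at 7.18% ± 5.06 and DKO libraries at 65.9%, 83.4% and 78.3%. Pro-B DKO libraries spread from 25.0% to 87.5% there, and all 3 lay above pro-B Tet2KO at 1.49% ± 2.58.

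Chromosome 7, 118067001 to 118067400, was the longest of the 15, with 4 called tiles. Its Tet2KO libraries stood at 10.6%, 9.06% and 3.71% and its DKO libraries at 84.1%, 76.5% and 85.2%, with Tet3KO at 20.3% ± 3.53 above WT at 9.54% ± 3.69 without overlap. Pro-B cells showed the same gap, with Tet2KO at 13% ± 9.36 and DKO at 90.3% ± 1.40 (n = 3 each). At chromosome 13, 30856401 to 30856600, Tet2KO stood at 5.73% ± 2.33, Tet3KO at 12.1% ± 4.73 and DKO at 74.9% ± 3.63.

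In the other 8 regions Tet3KO lay between WT and DKO, with a mean 16.97 to 58.8 points above that of WT. At chromosome 9, 44379101 to 44379300, which had the largest difference of the 15, Tet2KO libraries stood at 6.79%, 11.3% and 12.1% and DKO libraries at 97.3%, 91.0% and 100%, a difference of 86.1 points (adjusted p up to 0.000745). Tet3KO libraries stood at 38.4%, 44.1% and 53.4% and WT at 1.13% ± 0.310, so the genotypes followed in the order WT, Tet2KO, Tet3KO and DKO without overlap. In pro-B cells this region was methylated in every genotype, at 98.3% ± 2.95 in Tet2KO (n = 3), 93.9% in DKO library 10, 100% in Tet3KO library 7 and 99.3% in WT library 2, the only libraries with a value in those groups.

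Chromosome 8, 74844701 to 74844900, followed the same course. It stood at 93.3% ± 8.30 in pro-B WT and 91.8% ± 10.2 in pro-B DKO, and among follicular cells WT stood at 15.1% ± 1.77, Tet2KO at 23.8% ± 6.12, Tet3KO at 59.9% ± 2.85 and DKO at 88.1% ± 5.36 (SD, n = 3 each). At chromosome 19, 7029801 to 7030000, pro-B WT stood at 76.9% ± 25.2, follicular WT at 8.21% ± 2.55, Tet2KO at 19.8% ± 11.3, Tet3KO at 44.2% ± 2.16 and DKO at 91.0% ± 2.91. Tet2KO library 16 was the highest of its group there at 31.9%. In these 3 regions the pro-B group means were at least 76.9% in each genotype with values, and among follicular groups only DKO stood above that level.

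Chromosome 8, 89435001 to 89435200, was low in pro-B WT (16.7%, 22.2% and 21%) and in follicular WT (8.64% ± 3.82). Follicular Tet2KO stood at 16.7% ± 3.20, Tet3KO at 55.1% ± 3.14 and DKO libraries at 71.7%, 78.4% and 93.9%, with adjusted p up to 0.0449. At chromosome 7, 29573001 to 29573200, Tet2KO stood at 30.5% ± 2.48, Tet3KO libraries 19 and 20 at 53.9% and 79.6%, and DKO at 96.0% ± 4.16. That region kept its call in 9 of 17 alternative settings, the fewest of the 15.

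At chromosome 7, 106036401 to 106036700, Tet2KO stood at 13.2% ± 5.57, Tet3KO at 28.4% ± 5.17 and DKO at 83.4% ± 6.25. At chromosome 8, 36768601 to 36768900, Tet2KO stood at 18.9% ± 10.2, Tet3KO at 37.3% ± 5.12 and DKO at 84.9% ± 4.63, with Tet2KO library 18 at 30.6% above its group. At chromosome 15, 57638001 to 57638200, the values were 19.5% ± 2.57 for Tet2KO, 30.8% ± 1.46 for Tet3KO and 83.4% ± 1.44 for DKO (SD, n = 3 each). In these regions WT lay between 9.15% and 15%, near or below Tet2KO.

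**Figure D3:**
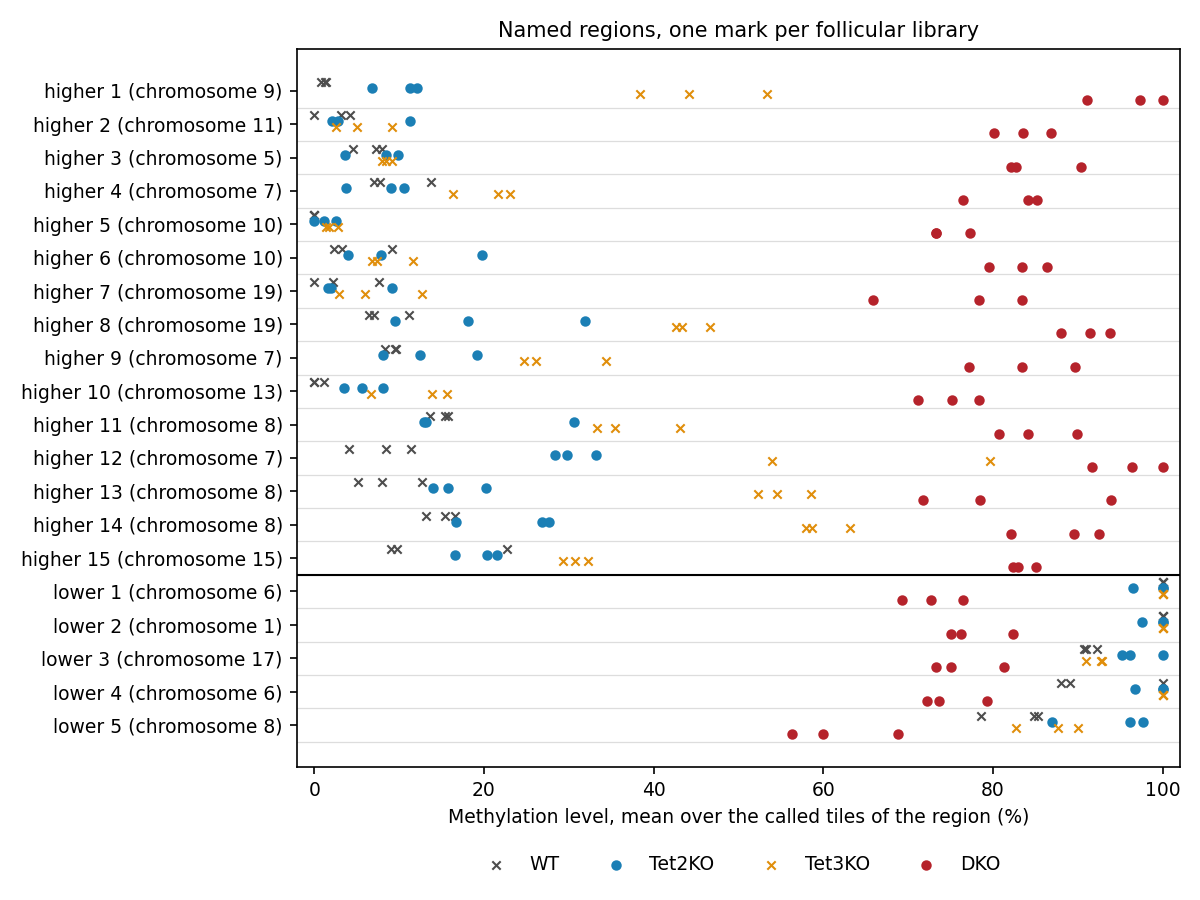
Methylation level (%) of the 15 named higher regions and 5 named lower tiles, numbered by rank within their direction, with one mark per follicular library. Circles are the compared groups Tet2KO and DKO, and crosses are WT and Tet3KO. In each row the 3 DKO libraries stand apart from the 3 Tet2KO libraries, while Tet3KO lies near WT in some rows and midway in others.

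The 8 tiles lower in DKO were all single tiles, and most were almost fully methylated in the other genotypes. At chromosome 6, 75028001 to 75028100, Tet2KO libraries stood at 100%, 100% and 96.6%, all WT and Tet3KO libraries at 100%, and DKO libraries at 72.7%, 76.5% and 69.2%, a difference of -26.0 points (adjusted p = 0.000691). At chromosome 1, 150409201 to 150409300, Tet2KO stood at 99.2% ± 1.41 and DKO at 77.8% ± 3.95. At chromosome 17, 77632101 to 77632200, they stood at 97.1% ± 2.53 and 76.5% ± 4.17 (SD, n = 3 each). Chromosome 6, 90288301 to 90288400, stood at 98.9% ± 1.86 and 75.1% ± 3.74, and chromosome 8, 3997101 to 3997200, at 93.6% ± 5.83 and 61.7% ± 6.41. Over the 6 lower tiles with all WT and Tet3KO values, Tet3KO lay 1.01 points above WT with overlap (exact permutation p = 0.5). The lower count was 4 on logit values and ran from 3 without Tet2KO library 17 to 55 without DKO library 23, with 37 without library 22 and 28 without library 24.

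Whether Tet3 loss changed a tile by a different amount without Tet2 than with it was tested directly, as the interaction of the 2 deletions. Among 371971 tiles the DKO-to-Tet2KO difference exceeded the Tet3KO-to-WT difference at 47 (0.0126%) and fell short of it at 3 (0.000807%). Over the 47 tiles follicular WT had a median of 1.77%, Tet2KO one of 2.72%, Tet3KO one of 4.63% and DKO one of 71.1%. The highest of the 47 tiles reached 13.1% in WT, 13.5% in Tet2KO and 31.3% in Tet3KO, while the lowest DKO level was 22.4%. These follicular levels chose the 47 tiles and are given as a description. Pro-B medians at the tiles with values were 10.7% in Tet2KO and 63.8% in DKO. The count of 47 was 123 without DKO library 23, 82 without library 22 and 86 without library 24, and 30 and 31 without WT libraries 15 and 14 and 31 without Tet2KO library 17. The count of 3 was 0 without Tet2KO library 16, 1 without WT library 14, 10 without WT library 13, and 9, 26 and 10 without DKO libraries 22, 23 and 24.

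Joined in the same way, the 47 tiles gave 39 regions, and 6 of these held at least 2 called tiles. The interaction passed the test at 1 or more tiles of 7 of the 15 named higher regions and of 32 of the other 250. Of the 7, 6 came from the first group described above and 1 from the second, and Tet3KO levels that formed these groups also enter the interaction. As a mean over the tiles of a region, it was 74.99 points at the chromosome 11 region from 5058301 (adjusted p of its tiles 0.00285 to 0.00552). It was 75.9 points at the chromosome 5 region from 123774301 (adjusted p 0.000991 to 0.0229). At the chromosome 10 region from 116996501 it was 71.4 points (adjusted p 0.000991 to 0.0103). It was 41.9 points at the chromosome 9 region from 44379101 (smallest adjusted p of its tiles 0.0564). At the chromosome 8 region from 74844701 it was 19.4 points (smallest adjusted p 0.921), so neither region passed. It was 35.2 points on average over the chromosome 19 region from 7029801, of the second group. Only 1 tile of that region passed, the one from 7029901, with an interaction of 66.1 points (adjusted p = 0.00943). The interaction was 57.5 points at the chromosome 13 region from 30856401, of the first group, which did not pass (smallest adjusted p of its tiles 0.0510). A single tile chosen after its values were seen had the largest interaction of the 47. At this tile, chromosome 17 from 86866801, WT stood at 5.92%, Tet2KO at 1.04%, Tet3KO at 0 and DKO at 93.7%, an interaction of 98.5 points (adjusted p = 0.00141). Its pro-B level was 95.8% in WT (n = 2), 100% in Tet2KO (n = 3), 42.3% in Tet3KO library 9 and 100% in DKO library 10. The 3 tiles with an interaction below 0 were the lower tiles of chromosomes 6 (75028001) and 1 (150409201) named above and a tile of chromosome 7 from 150613301, where WT stood at 72.9%, Tet2KO at 91.5%, Tet3KO at 98.6% and DKO at 68.9%.

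The difference between DKO and Tet2KO was smaller at tiles beside the higher regions than at their centres. Within 100 bp of the centre of a higher region, DKO lay 52.0 points above Tet2KO on average (297 tiles, 290 of them called). At the 7 tiles there that were not called, the difference was 35.9 points. Among tiles about 200 bp away that were not themselves called, the difference was 20.2 points (307 tiles), and it was 10.6 points at about 400 bp (82 tiles) and 5.17 points at about 600 bp (54 tiles). It did not fall steadily farther out, at 2.19 points at about 1000 bp, 6.10 points at about 1400 bp and 8.14 points at about 2000 bp (41 tiles). Over all tiles Tet2KO stood at 14.7% at the centre, 49.4% at about 400 bp and 58.5% at about 800 bp, whereas DKO stood at 66.7%, 60.0% and 63.6%. The centre values come from 264 regions, those at about 400 bp from 58 and those at about 800 bp from 33, so the flanks in the plot by distance describe a minority of the regions. Tiles were chosen by their value at the centre, so the gap there and its fall towards the flanks are a description.

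The number of other member tiles within 500 bp on either side, at most 10, serves as a rough measure of how CpG-rich a place is, since RRBS samples CpG-rich fragments. The 320 higher tiles and all tested tiles had the same median of 2 such neighbours. Tiles under 20% in Tet2KO had a median of 5 such neighbours, and the 240 higher tiles under 20% in Tet2KO a median of 1.5. Of the 1781 such tiles with no neighbour, 29 were called higher (1.63%). The share was 0.744% with 1 to 2 neighbours, 0.147% with 3 to 5 and 0.0132% with 6 to 10 (6 of 45326 tiles). Over tiles of any level the share ran from 0.0905% with no neighbour through 0.105% and 0.0885% to 0.0127% in the densest group.

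**Figure D4:**
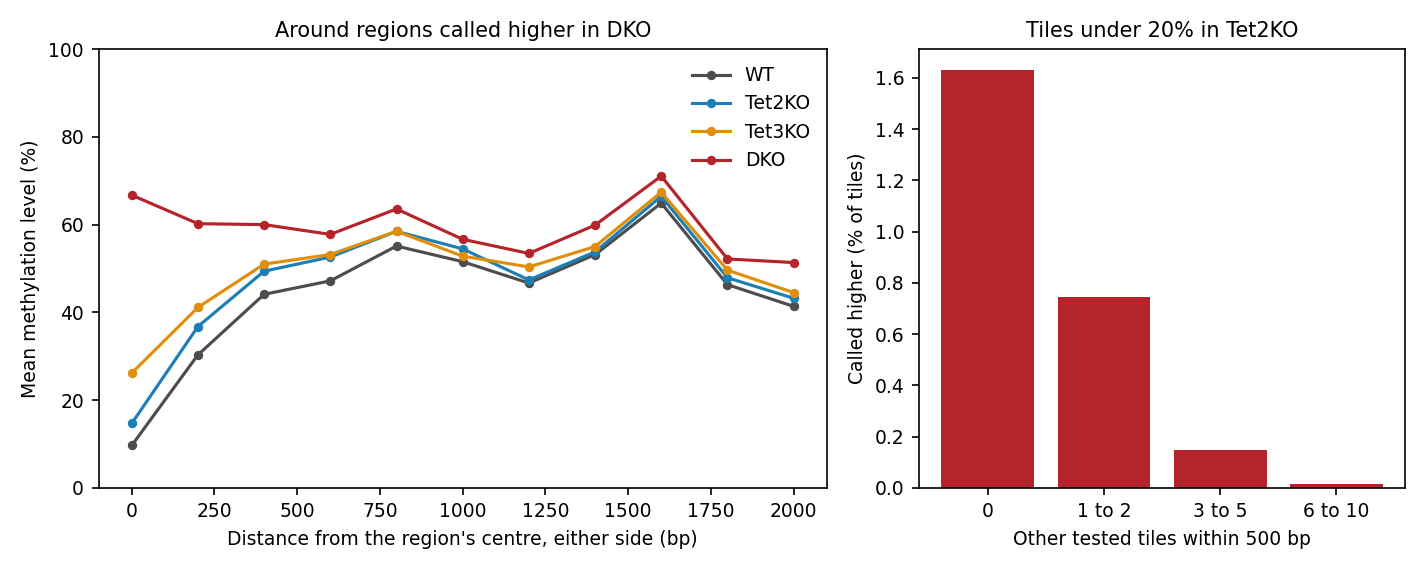
Left, mean methylation level (%) of the follicular genotypes against distance in bp from the centre of the 265 higher regions, over member tiles in steps of 200 bp. The 264 regions with tiles at the centre and the 58 with tiles at about 400 bp are not the same set, and the lines of WT, Tet2KO and Tet3KO are lowest at the centre. Right, the share (%) of tiles under 20% in Tet2KO that were called higher in DKO, by the number of other tested tiles within 500 bp, from 1.63% with none to 0.0132% with 6 to 10.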

How the data were processed

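Methylation was measured by RRBS in 24 libraries, and 16 samples from RNA sequencing were not analysed here. The table deposited by the authors gives, per 100 bp tile and library, the methylation fraction (0 to 1) without read counts, so the depth is unknown and no counting interval is given. Trim Galore and methylKit, without versions, and the builds mm9 and hg19 are named in the submitters' processing notes. The last tile of chromosome 1 ends at 197193600, so coordinates were read as mm9. No aligner or coverage minimum is given in the sources used here.

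Fractions were multiplied by 100. Limma 3.58.1 (with R 4.3.3) was fitted to the levels of member tiles in the 12 follicular libraries with genotype as a factor and a trended prior spread, with at most 8 residual degrees of freedom, since WT and Tet3KO values may be missing. P-values were adjusted by Benjamini-Hochberg over all tiles tested. Pro-B libraries were left out of the fit. Chromosomes X and Y were left out because Tet2KO mice were all female. The interaction used tiles with at least 2 values in WT and in Tet3KO. Regions were named by the rule of at least 2 called tiles and no overlap, at most 15 per direction, filled up to 5 with single tiles of smallest adjusted p. For library means, exact permutation tests were used, two-sided. The comparison, its lists and its tests were chosen with earlier results of these data known. The procedure was tested on simulated data. Planned gene lists were not used, for want of an mm9 annotation.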

Additional observations from a re-analysis of the deposited data

Results flagged for a closer look

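The effect of Tet3 loss differed between follicular cells without Tet2 and with it at 47 tiles in the direction of a larger rise without Tet2, and at 3 tiles in the other direction. The difference itself was tested, as limma's interaction of the genotypes at an adjusted p under 0.05 and at least 20 points. An unadjusted p under 0.05 was reached by 17829 of 371971 tiles (4.79%). This share is not above what that threshold would give without any interaction, so small p-values were not in excess across the tiles.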

How the results depend on the processing

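No paired analysis was possible because library numbers of the compared groups are not shared. Higher and lower counts of DKO against Tet2KO, in that order, were 0 and 0 with only the 6 compared libraries, 210 and 8 with all 24 libraries in the fit, 156 and 10 with sex as a covariate, and 9 and 0 at the 16026 tiles with 24 values, where limma gave 1154 tiles an unadjusted p under 0.05. Lower counts were 4 on logit values, 4 at 30 points, 60 by adjusted p alone, 13 with X and Y, and 24 with 2 of 3 values. Interaction counts above and below 0 were 30 and 11 on logit values, 18 and 3 with 24 libraries, 27 and 2 with sex, 85 and 7 with 2 of 3 values, and 0 and 0 at tiles with 24 values (624 at an unadjusted p under 0.05). Below 0 there was 1 tile at 30 points and 18 by adjusted p alone. With library 24 alone for DKO, added after seeing the data, counts were 1105 and 1124, and 522 and 790 for the interaction; the lone library is assumed to be as variable as other groups. Leaving out 1 library gave 211 to 485 higher and 3 to 55 lower tiles, and 30 to 123 and 0 to 26 for the interaction. Mean differences were 0.477 points (all tiles), 0.386 (under 20%), 2.51 (20 to 80%) and 0.0557 (over 80%) at tiles with 24 values. As medians over tiles they were 0.396 (all), 0 (under 20%) and 0.418 (over 80%), and with X and Y 0.412 under 20%. Without 1 library they ran from 0.713 to 1.06, 0.725 to 0.937, 3.39 to 5.33 and 0.146 to 0.306. The pro-B difference at higher tiles ran from 21.7 to 30.9 points and the Tet3KO-to-WT difference from 13.1 to 16.5 when a library was left out (14.4, 13.9, 13.95 and 13.8 with Tet2KO libraries 16, 17 and 18 and DKO library 24 out of the calls); the latter ran from 0.525 to 1.93 at lower tiles. Calls of named higher regions held in 229 of 255 pairs of region and setting, and those of lower tiles in 56 of 85, with no change of direction. A region counted as held where at least 1 of its tiles was still called. The direction could change only with sex as a covariate, with libraries centred or with a compared library left out. By adjusted p alone no call could be lost, and at 30 points no named higher region could be. Fits with fewer libraries have less power by construction, yet counts rose when a DKO library was left out. A smaller set of tiles leaves fewer to call, and pro-B Tet3KO library 8, with a value at only 24600 tiles, bounds the tiles with 24 values. Higher tiles were 327, 485 and 326 without DKO libraries 22, 23 and 24, against 320 with all. Why the counts moved was not tested. No lower tile had a value in all 6 pro-B libraries, so the pro-B difference was not tested there. Over the pro-B values that were available, the 8 lower tiles had a mean of 78.0% in Tet2KO and 76.6% in DKO. The calls from 6 libraries left no tiles to measure.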

Other observations

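Tiles higher in DKO than in Tet2KO were found on all 19 autosomes. Their share of the tested tiles was 0.169% on chromosome 19 (19 tiles) and 0.155% on chromosome 7 (38 tiles), the highest values, and 0.0427% on chromosome 16 (5 tiles), the lowest. Of the 8 lower tiles, 3 lay on chromosome 8.

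Where no rule named them, the lower tiles were chromosome 1 from 183489901, at 100% in the Tet2KO libraries and 60.3% ± 9.68 in DKO, chromosome 8 from 125672401, at 86.4% ± 1.38 and 53.1% ± 3.66, and chromosome 8 from 15012501, at 37.1% ± 7.84 in Tet2KO and 0, 12% and 0 in the DKO libraries (SD, n = 3 each). The last was the only lower tile with a level under 50% in Tet2KO.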
